A study of Ovis aries with 26 samples.

Results

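The 10 imprinted growth genes DLK1, IGF2, IGF2R, CDKN1C, PEG3, PEG10, MEST, GRB10, DIRAS3 and PLAGL1 were followed in single-cell RNA of the developing sheep pancreas. They were chosen by name, as genes that are imprinted in mammals and act on fetal growth, and were 10 of the 24478 genes in the deposited matrices. The study sequenced pancreas cells of sheep that lack CFTR, the chloride channel mutated in cystic fibrosis (CF), and of controls, at 80 and 120 days of gestation and at term. All animals were American Romney sheep, and fresh pancreas was digested with collagenase before droplet capture. At 80 days there were 4 non-CF male fetuses, 2 of them WT and 2 heterozygous for WT and an edited CFTR allele, and 3 cloned male CFTR-/- fetuses. At 120 days there were 3 WT fetuses (1 female), 4 cloned male CFTR-/- fetuses and 2 naturally bred female CFTR-/- fetuses from 1 pregnancy. At term there were 4 WT lambs (1 female), 2 naturally bred female CFTR-/- lambs and 1 cloned male CFTR-/- lamb. Clones came by somatic cell nuclear transfer from a single male CFTR-/- fibroblast line, so each clone carried the same genome, whereas the bred CF lambs came from heterozygous ewes and rams. A cloned 120-day fetus with large offspring syndrome, an overgrowth seen after cloning, was not used by the study. Cloning and genotype cannot be told apart where cloned CF animals are set against controls, and cloning and sex cannot be told apart where clones are set against the bred fetuses, all of which were female. Sex also differs where bred CF animals, all female, are set against WT animals. Of these, 1 of 3 at 120 days and 1 of 4 at term was female, so genotype and sex are not separated there. Several animals shared a pregnancy (3 of the 4 non-CF fetuses at 80 days were triplets, and 2 animals each of the cloned groups and of the WT group at 120 days were littermates), so p-values measure the spread between these animals and not between independent pregnancies.

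Imprinted genes are read from the copy inherited from one parent, with the other copy silenced by marks set in the germ line. Many act on growth before birth, the paternally expressed ones mostly by driving it and the maternally expressed ones mostly by holding it back, and reprogramming a somatic nucleus is known to disturb some of them. In the pancreas, DLK1 and IGF2 are known from fetal mesenchyme, and loss of the maternal copy of the CDKN1C region from overgrown islet lesions in infants. UMI counts do not say which parental copy was read, so imprinting itself was not measured here.

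The libraries gave 109501 barcodes, of which 79510 passed the study's limits (over 200 and under 6000 genes, under 25% mitochondrial UMIs). UMIs per library ran from 7841217 (cloned fetus 3 at 120 days, with 943 cells and none that were endocrine-like) to 171256169 (WT term lamb 2). Of 78681 distinct barcode sequences, 824 occurred in more than 1 library, and no pair of libraries shared more than 12. Cells were assigned to lineages by marker gene scores that held none of the 10 genes: 29304 acinar-like, 11080 duct-like, 9429 endocrine-like, 6189 stromal-like, 4411 endothelial-like, 3345 mural-like, 1968 macrophage-like, 1380 lymphoid-like and 1086 Schwann-like cells, with 10812 left without a lineage. Defining markers sat where the labels place them, with the acinar lipase CEL at 9886 CPM (UMIs per 1000000 UMIs of the lineage) in acinar-like cells, the endocrine granule gene CHGA at 2349 CPM in endocrine-like cells and COL1A1, the collagen I chain, at 9981 CPM in stromal-like cells. Since markers were used to assign the cells, these levels describe the lineages and do not check the labels. Duct-like cells carried intestinal epithelium markers at a summed 5454 CPM beside 5551 CPM for their own markers, and Schwann-like cells carried stromal markers at 5694 CPM beside 4534 CPM for their own. CFTR itself was read at 139 to 815 CPM in duct-like cells over all animals, and this transcript level does not check the genotype labels.

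In the non-CF fetuses at 80 days, stromal-like cells had the highest mean for 7 of the 10 genes, endocrine-like cells for PEG10 and DIRAS3, and endothelial-like cells for GRB10. DLK1, a membrane protein of the Notch ligand family that holds precursors undifferentiated, was read at 6560.3 ± 1003 CPM (SD, n = 4) in stromal-like cells at 80 days, 7663 ± 2602 CPM (SD, n = 3) at 120 days and 2902 ± 1829.5 CPM (SD, n = 3) at term. At all 3 ages every stromal value lay above every value of the next lineage, the endocrine-like cells, at 534 ± 302 CPM (SD, n = 4), 446 ± 389.9 CPM (SD, n = 3) and 373 ± 534 CPM (SD, n = 3). A DLK1 UMI was found in 89.3% of stromal-like cells (median 5963 UMIs per cell) and in 4.6% of endothelial-like cells (median 5504), a lineage taken here as the background. The share in endocrine-like cells was 12.6% (95% Wilson interval 12 to 13.3%), at a median of 10577 UMIs. DLK1 UMIs per COL1A1 UMI were 0.535 in stromal-like, 0.775 in acinar-like and 0.852 in duct-like cells but 76.2 in endocrine-like cells. The part of free stromal RNA in the readings outside the stroma was not tested.

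IGF2, the fetal insulin-like growth factor, was a gene of the whole mesenchyme and of vessels. At 80 days stromal-like cells gave 4744 ± 582 CPM (SD, n = 4), mural-like cells 2808 ± 934 CPM (SD, n = 4) and endothelial-like cells 2429.8 ± 239 CPM (SD, n = 4). Stromal values lay above those of every other lineage at 80 and 120 days, mural and endothelial values overlapped at each age, and at term the stromal and endothelial values overlapped too. An IGF2 UMI was found in 95.5% of stromal-like, 77.6% of endothelial-like, 75.5% of mural-like and 47.4% of Schwann-like cells, against 1.45% of acinar-like cells, which are deeper (median 28591.5 UMIs). IGF2 UMIs per COL1A1 UMI were 0.361 in stromal-like and 0.446 in acinar-like cells, 1.72 in mural-like and 106 in endothelial-like cells. IGF2R, the receptor that removes IGF2 from the cell surface, had low counts throughout. At 80 days the stromal-like mean was 74.6 ± 15.8 CPM (SD, n = 4) and the endothelial-like mean 61.8 ± 18.6 CPM (SD, n = 4), with overlapping animals, and a UMI was found in 23.3% of stromal-like cells.

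Among the genes that restrain growth, CDKN1C, a cyclin-dependent kinase inhibitor, was stromal as well, at 923 ± 66.5 CPM (SD, n = 4) at 80 days and 769 ± 61.6 CPM (SD, n = 3) at 120 days, above all other lineages at both ages. At term its stromal mean was 775 ± 893 CPM (SD, n = 3), with 1807 CPM in WT lamb 3, of which 30 stromal-like cells were kept, and 268 and 251 CPM in lambs 2 and 4. GRB10, an adaptor that dampens insulin and IGF receptor signals, was the endothelial member. It was read at 216 to 269 CPM in the 4 non-CF fetuses at 80 days, 142 to 193 CPM at 120 days and 157 to 181 CPM at term in endothelial-like cells, each time above every other lineage. DIRAS3, a small GTPase that slows growth, was endocrine, at 1866 ± 199 CPM (SD, n = 4) at 80 days, 1610.4 ± 89.6 CPM (SD, n = 3) at 120 days and 2289 ± 769 CPM (SD, n = 3) at term. A DIRAS3 UMI was found in 98% of endocrine-like and 3.17% of endothelial-like cells. PLAGL1, a zinc finger factor that can stop the cell cycle, was stromal at 80 and 120 days (354 ± 33.5 CPM (SD, n = 4) and 243 ± 58 CPM (SD, n = 3)), and at term its stromal and mural values overlapped.

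Of the 3 remaining genes, PEG10, derived from a retrotransposon and needed for the placenta, was endocrine. Its endocrine values were 572 to 694 CPM at 80 days and 565 to 689 CPM at 120 days, above every other lineage, and 64.3 to 262 CPM at term, where they overlapped the stromal ones. A PEG10 UMI was found in 70.1% of endocrine-like and 1.7% of acinar-like cells, although the latter were deeper. MEST, a hydrolase-like protein of growing mesoderm, was stromal at every age, at 949 ± 162 CPM (SD, n = 4), 298 ± 58.8 CPM (SD, n = 3) and 84.4 ± 30.1 CPM (SD, n = 3) from 80 days to term. PEG3, a zinc finger protein, gave 56.9 ± 11 CPM (SD, n = 4) for the stroma and 45.5 ± 9.44 CPM (SD, n = 4) for endocrine-like cells at 80 days, which overlapped, and no lineage stood apart at later ages.

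**Figure D1:**
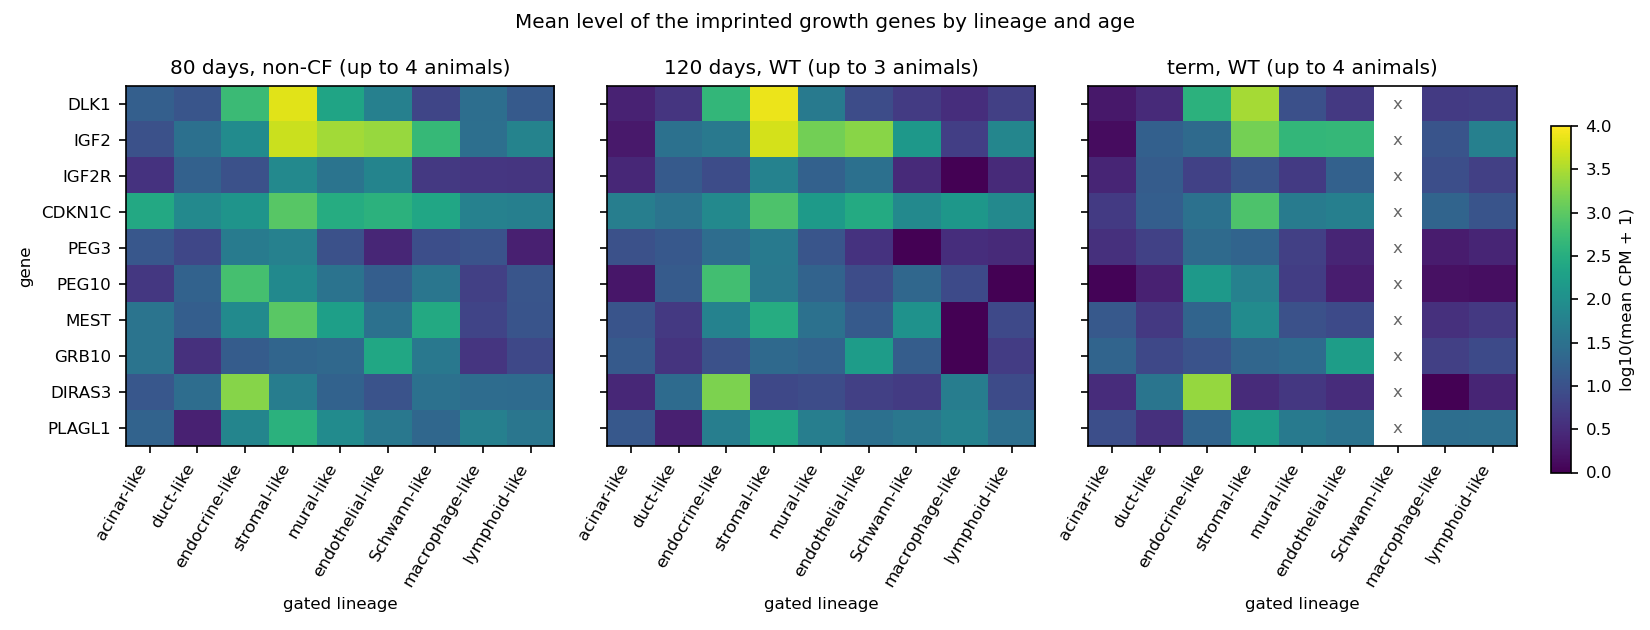
Mean level of the 10 genes (rows) in each marker-gated lineage (columns) of non-CF animals, as log10 of mean CPM + 1 (brighter is higher), with 1 panel per age and a cross where no animal had 20 cells. DLK1, IGF2, CDKN1C, MEST and PLAGL1 are brightest in the stromal column, GRB10 in the endothelial column, and PEG10 and DIRAS3 in the endocrine column.

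The genes whose levels ranked most like those of the leading members over 26 lineage-by-age means of non-CF animals (8600 genes ranked) were, for DLK1, TMEM131 (Spearman's rho = 0.865), NELL2 (0.846) and TMEM200B (0.836). For IGF2 they were PLSCR3 and MEG3 (both 0.946) and FAM89B (0.922), and for DIRAS3 they were SCG5, a granule protein (0.879), LOC101108627 (0.845) and GCG, the glucagon gene (0.843). MEG3 is the non-coding RNA of the DLK1 locus, named GTL2 in the RefSeq table, where it neighbours DLK1, yet it ranked like IGF2. These rhos describe means that share libraries and depth and carry no test.

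With advancing gestation the members moved downward wherever a change passed the test. Across lineages, 75 gene and lineage pairs of the 10 members could be tested from 80 to 120 days in non-CF fetuses by edgeR's quasi-likelihood test, with adjustment over all genes of the lineage, and 3 were lower and 0 higher at an adjusted p of 0.05 or less. Of all genes tested in these lineages, 1.1% were called, and 0.367% were called lower. From 120 days to term in WT animals, 10 of 66 pairs were lower and 0 higher, against 5.38% of all genes called and 2.46% called lower. The share of all genes called in this second interval was 19.1% in acinar-like and 6.42% in stromal-like cells. It was 2.86% in endocrine-like, 1.87% in endothelial-like and 1.04% in duct-like cells. The acinar calls, CDKN1C and PEG10 among the 10 members tested there, are a share near that of all acinar genes. The median log2 fold change over the member pairs was -0.43 for the first interval and -0.89 for the second, beside -0.02 and -0.01 over all genes tested. The WT fetuses at 120 days enter both intervals.

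MEST fell over both intervals. In mural-like cells its level was 131, 227, 165 and 207 CPM in the 4 non-CF fetuses at 80 days and 26.1, 36.1 and 28.4 CPM in the 3 at 120 days (log2 fold change -2.38 ± 0.37 (SE), adjusted p = 0.00298), a call lost when littermates were summed (adjusted p = 0.197), with at least 50 cells required (0.0852) or without the heterozygous fetuses (0.0606). In stromal-like cells it was 814, 1179, 943 and 860.1 CPM at 80 days, 314, 233 and 348 CPM at 120 days and 105, 98.8 and 49.8 CPM in term lambs 2, 3 and 4. No 2 of these 3 stromal age groups overlapped. Both stromal steps passed the test, with log2 fold change -1.50 ± 0.36 (SE), adjusted p = 0.0451 for the first and log2 fold change -1.62 ± 0.40 (SE), adjusted p = 0.0193 for the second. The first was lost in 12 of the 23 rounds that each left out 1 animal, with any of the 7 animals compared left out among them (adjusted p up to 0.184), and in 6 of the 11 other settings tried (adjusted p up to 0.502). WT term lamb 1, with 14 stromal-like cells, was not in the stromal fit, so its round repeated the main result. The second was lost without WT fetus 3 at 120 days or WT term lamb 4 and in 2 of the 11 other settings tried (adjusted p up to 0.0665). Genes of cell division, a list that holds no member, averaged 807, 390.4 and 27.5 CPM per animal in stromal-like cells at the 3 ages, and their part in the change was not tested.

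IGF2 fell between 120 days and term in vessels and stroma. Its stromal level was 5098, 4906, 5092 and 3881 CPM at 80 days, 5655, 4615 and 6055 CPM at 120 days and 1191, 2569 and 615 CPM at term. The fetal values overlapped each other and lay above every term value (log2 fold change -1.99 ± 0.37 (SE), adjusted p = 0.00366). In endothelial-like cells IGF2 was 1903, 1741 and 2276 CPM at 120 days and 865, 409.7, 328 and 220.3 CPM at term, again without overlap (log2 fold change -2.15 ± 0.35 (SE), adjusted p = 0.00212). Both calls held whichever of the animals in the fit was left out. DLK1 in stromal-like cells was 10613, 5696 and 6681 CPM at 120 days and 2314, 4954 and 1439 CPM at term, also without overlap, but the difference missed the threshold (log2 fold change -1.47 ± 0.46 (SE), adjusted p = 0.056). IGF2R in stromal-like cells was 69.9, 73.7 and 30 CPM at 120 days and 5.63, 14.1 and 10.8 CPM at term (log2 fold change -2.61 ± 0.53 (SE), adjusted p = 0.00592), and without WT term lamb 2 the adjusted p was 0.107.

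CDKN1C fell in 3 lineages over the same interval, with its largest estimate in acinar-like cells. In acinar-like cells it was 305, 219, 251 and 242 CPM at 80 days, 49.6, 31.5 and 68.3 CPM at 120 days and 3.87, 7.36, 0.623 and 3.13 CPM at term. The 3 ages formed separate ranges in that order, and the later step passed the test (log2 fold change -3.78 ± 0.67 (SE), adjusted p = 0.00105), where 19.1% of all acinar genes were called. CPM leave out the scaling of the fit, so ranges and fitted changes can differ. The earlier step was not called (log2 fold change -1.39 ± 0.65 (SE), adjusted p = 0.269). In endothelial-like cells the values were 249, 220.5 and 374 CPM at 120 days and 45.5, 37.8, 79.5 and 43.1 CPM at term (log2 fold change -2.56 ± 0.30 (SE), adjusted p = 7.15e-05). In endocrine-like cells they were 60.8, 105 and 63.8 CPM and 28.7, 18.7 and 43.3 CPM (log2 fold change -1.40 ± 0.31 (SE), adjusted p = 0.0159), a call lost without WT fetus 2 at 120 days, without WT term lamb 3, without the female animals or with littermates summed (adjusted p up to 0.184). The acinar and endothelial calls held whichever of the animals in the fit was left out.

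PEG10 fell in the epithelial lineages. In endocrine-like cells it was 572, 565 and 689 CPM at 120 days and 91.7, 262 and 64.3 CPM at term (log2 fold change -2.08 ± 0.36 (SE), adjusted p = 0.00288). In duct-like cells it was 10.7, 19.5 and 9.4 CPM at 120 days and 1.26, 2.13, 1.27 and 0.602 CPM at term (log2 fold change -2.98 ± 0.49 (SE), adjusted p = 0.00332), while CHGA in the same cells was 13.5, 7.19 and 18.5 CPM and 6.92, 13.4, 12.1 and 3.61 CPM, which overlapped. The term values rest on 4, 10, 2 and 1 PEG10 UMIs. PEG10 UMIs per CHGA UMI in endocrine-like cells were 0.518, 0.47 and 0.432 at 120 days. In term lambs 2, 3 and 4 they were 0.0355, 0.0544 and 0.0183. The part of endocrine RNA in the duct change was not tested. In acinar-like cells, where the PEG10 level was at most 1.48 CPM at 120 days, the call (log2 fold change -2.87 ± 0.76 (SE), adjusted p = 0.0139) was lost without WT fetus 3 at 120 days and in 3 of the 11 other settings tried (adjusted p up to 0.0681). DIRAS3 fell in stromal-like cells from 80 to 120 days, at 33.6, 55.3, 43.1 and 65.1 CPM against 7.77, 4.09 and 7.5 CPM (log2 fold change -2.66 ± 0.56 (SE), adjusted p = 0.0238), while CHGA in these cells was 9.53, 21.4, 12.8 and 19.5 CPM and 10.9, 4.09 and 6.88 CPM, which overlapped. That call was lost without any of the 3 fetuses at 120 days or without fetus 2, 3 or 4 at 80 days (adjusted p up to 0.123), and in 4 of the 11 other settings tried (adjusted p up to 0.635). In endocrine-like cells, where DIRAS3 is abundant, no age difference was called (adjusted p = 0.996 and 0.209). GRB10, PEG3, PLAGL1 and DLK1 had no age call in the lineages where they could be tested, which left out macrophage-like cells in both intervals and Schwann-like cells in the second, and lymphoid-like cells for GRB10 and PEG3.

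**Figure D2:**
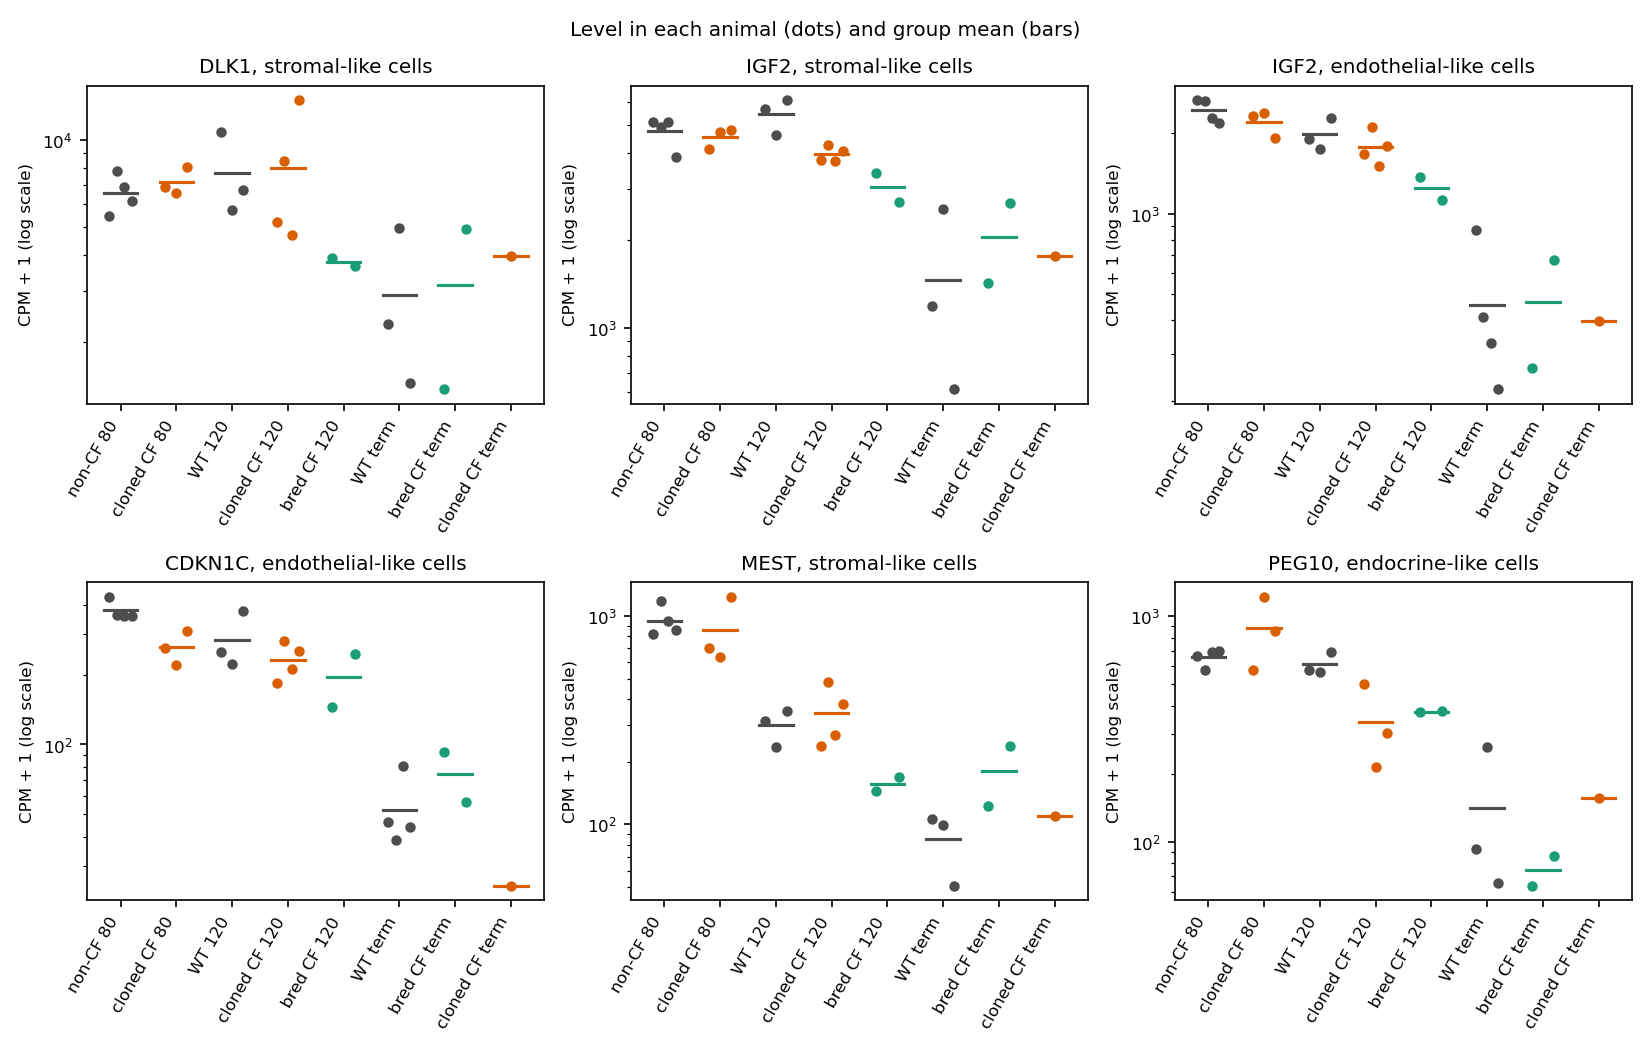
Level in each animal (dots; CPM + 1 on a log axis) and group mean (bars) by age and group, for DLK1, IGF2 and MEST in stromal-like, IGF2 and CDKN1C in endothelial-like and PEG10 in endocrine-like cells. Among the non-CF animals, the term values of IGF2, CDKN1C, MEST and PEG10 in these lineages lie below all 120-day values.

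Endocrine-like cells were a mixture, and DLK1, IGF2, PEG10 and DIRAS3 were placed differently in it. They were divided by hormone UMIs, a division made after the data were seen, into cells with at least 5000 CPM of GCG (glucagon), SST (somatostatin) or PPY (pancreatic polypeptide) and cells below that for all 3. The insulin gene was not used here, so the hormone-low cells may hold insulin-producing cells as well as precursors. DLK1 was in the hormone-low cells of all 4 non-CF fetuses at 80 days (672, 1269, 2210.1 and 1211 CPM), while their glucagon-high cells were at 4.37 to 41.5 CPM. COL1A1, the stromal marker, was 5.04 to 94.4 CPM in those hormone-low cells. IGF2 was likewise 179, 197, 256 and 84.6 CPM in hormone-low cells of these fetuses and 1.34, 34.4, 5.34 and 2.91 CPM in their glucagon-high cells, with 236, 49 and 64.1 CPM in somatostatin-high cells of fetuses 1, 2 and 4. Among older animals hormone-low DLK1 varied widely, at 1333, 7.62 and 2529.8 CPM in the WT fetuses at 120 days and 419, 4626 and 6.34 CPM in WT term lambs 2, 3 and 4. The 2 low values come from few hormone-low cells, 26 in WT fetus 2 and 25 in WT term lamb 4. WT fetus 2 at 120 days was low for DLK1, IGF2 (5.3 CPM in all endocrine-like cells, against 45.3 and 71) and PLAGL1 (5.3, against 73.3 and 69.9) alike. It was the only female WT fetus of that age, and the part of sex was not tested.

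Of the hormone subsets, PEG10 was highest in the glucagon-high cells of the non-CF fetuses, at 811 to 914 CPM at 80 days and 751 to 828 CPM at 120 days, and it was 101 to 318 CPM there at term. Hormone-low cells held it too, at 399 to 585 CPM at 80 days, 252 to 510.5 CPM at 120 days and 44.4 to 183 CPM at term, and somatostatin-high cells at 31.9 to 154 CPM in the fetuses. In glucagon-high cells it fell between 120 days and term (log2 fold change -2.14 ± 0.34 (SE), adjusted p = 0.00161), as did CDKN1C (log2 fold change -1.83 ± 0.30 (SE), adjusted p = 0.00204). In hormone-low cells PEG10 (log2 fold change -1.68 ± 0.39 (SE), adjusted p = 0.0227) and MEST (log2 fold change -1.83 ± 0.40 (SE), adjusted p = 0.0157) fell over the same interval. Of all genes tested in this comparison, 3.24% were called in glucagon-high and 1.85% in hormone-low cells. DIRAS3 was high in all subsets, at 1569.7 to 2245 CPM in glucagon-high, 1388 to 2067 CPM in hormone-low and 828 to 1228 CPM in somatostatin-high cells of non-CF fetuses.

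**Figure D3:**
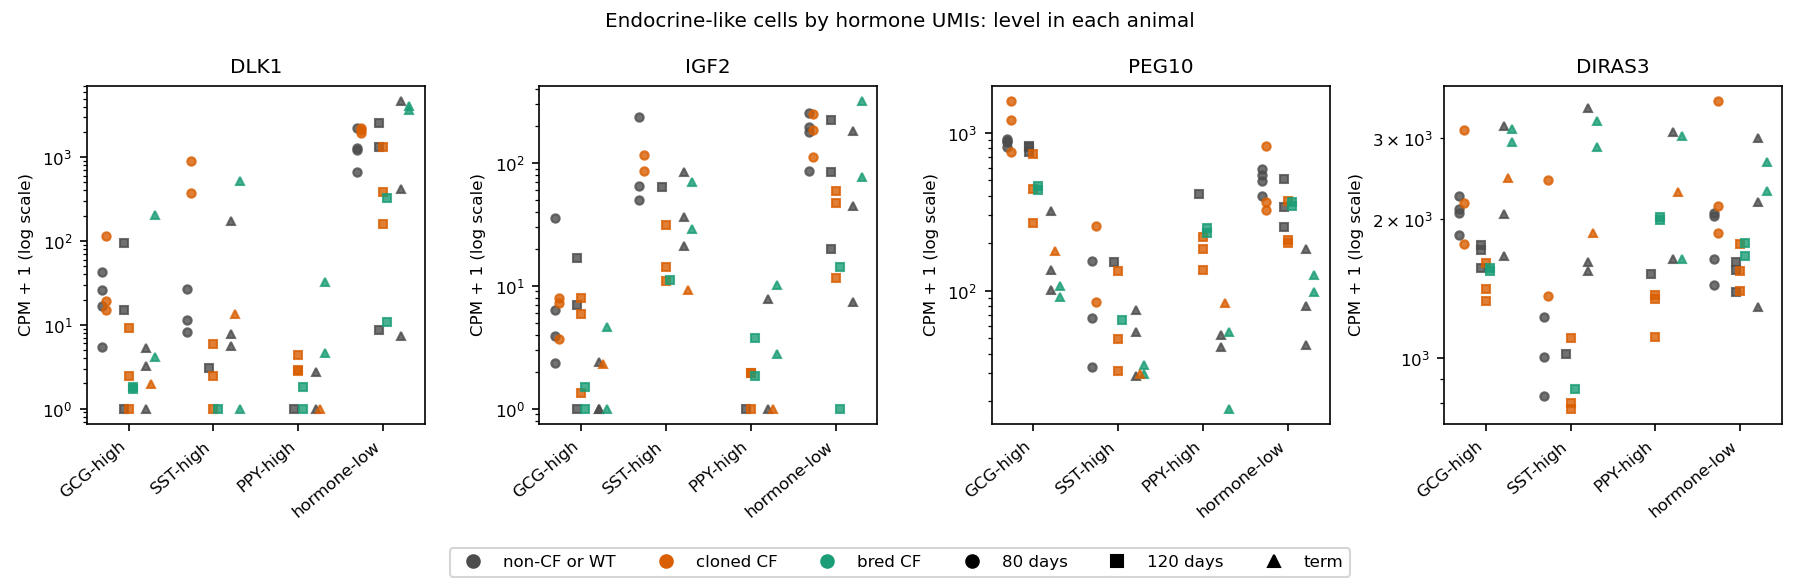
Level of DLK1, IGF2, PEG10 and DIRAS3 (CPM + 1, log axis) in each animal (points; colour for group, marker shape for age) in endocrine-like cells divided by hormone UMIs. Most DLK1 points of the hormone-low column lie above the other columns, with 3 below 10 CPM, and fetal PEG10 is highest in the glucagon-high column in each animal. For IGF2, non-CF fetuses at 80 days sit at 84.6 to 256 CPM in the hormone-low and 1.34 to 34.4 CPM in the glucagon-high column, and the columns overlap among older animals.

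At 80 days, cloned CF fetuses were set against non-CF fetuses, the comparison that holds genotype and cloning together. DLK1, IGF2 and IGF2R overlapped between the groups in stromal-like cells, and each call fell outside the member's leading lineage. Of 84 gene and lineage pairs in 9 lineages, 1 was higher and 2 were lower in clones, against 0.488% of all genes called in these lineages (0.289% higher and 0.2% lower). Estimates were higher in 50 pairs and lower in 34, with a median log2 fold change of 0.17. In stromal-like cells DLK1 was 5459, 7793, 6869 and 6121 CPM in non-CF and 6885, 6557 and 8049 CPM in cloned fetuses (log2 fold change 0.15 ± 0.42 (SE), adjusted p = 1), and IGF2 was 5098, 4906, 5092 and 3881 CPM and 4136, 4703 and 4783 CPM (log2 fold change -0.05 ± 0.34 (SE), adjusted p = 1). Both sets of values overlapped between the groups. IGF2R in stromal-like cells was 55.5, 67.9, 89.4 and 85.5 CPM in non-CF and 30.9, 67.4 and 95.8 CPM in cloned fetuses (log2 fold change -0.24 ± 0.33 (SE), adjusted p = 1), again with overlap.

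PEG10 was the member that was higher in clones, in duct-like cells. Its level there was 21.9, 23.8, 14 and 8.98 CPM in non-CF and 43.9, 123 and 72.5 CPM in cloned fetuses, a 4.99-fold difference without overlap (log2 fold change 2.32 ± 0.36 (SE), adjusted p = 0.0024). CHGA in the same cells was 22.2, 19.3, 15.5 and 18.5 CPM in non-CF and 19.6, 31.2 and 109 CPM in cloned fetuses, so endocrine RNA was highest in cloned fetus 3, and its part in the result was not tested. PEG10 UMIs per CHGA UMI in duct-like cells were 0.988, 1.23, 0.90 and 0.485 in the non-CF and 2.24, 3.95 and 0.668 in the cloned fetuses, so fetus 3 lay within the non-CF range, and the ratio was 0.226 to 0.518 in endocrine-like cells of these animals. The call held in all 23 fits that left out an animal and was lost when littermates were summed (adjusted p = 0.172) or the 2 heterozygous fetuses were left out (0.0622). In endocrine-like cells, its main site, PEG10 was 661, 572, 688 and 694 CPM in non-CF and 576, 1211 and 856 CPM in cloned fetuses, which overlapped (adjusted p = 0.889).

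The growth restrainers CDKN1C and DIRAS3 gave the lower calls. CDKN1C in Schwann-like cells was 232 and 236 CPM in non-CF fetuses 1 and 4 and 78, 39.5 and 58.8 CPM in the clones (log2 fold change -1.92 ± 0.40 (SE), adjusted p = 0.0374). The 2 controls had 36 and 21 such cells, COL1A1 in Schwann-like cells was 682 and 717 CPM in them and 1819, 1649 and 2341 CPM in the clones, and the call was lost without either control or without cloned fetus 2 or 3, and in 3 of the 10 other settings tried (adjusted p up to 0.374). CDKN1C in endothelial-like cells was 430.4, 361, 357 and 357 CPM in non-CF and 258, 219 and 306 CPM in cloned fetuses, and in stromal-like cells 934, 982, 947 and 828 CPM and 745, 331 and 740.3 CPM. In both lineages every clone lay below every control, and neither difference was called (adjusted p = 1 and 0.97). DCN, a stromal marker that is not a member, was also lower in stromal-like cells of every clone. It was 5431 to 5845 CPM in cloned and 6730 to 8919 CPM in non-CF fetuses, and the part of such a wider stromal shift was not tested. DIRAS3 in stromal-like cells was 33.6, 55.3, 43.1 and 65.1 CPM in non-CF and 8.9, 8.77 and 21 CPM in cloned fetuses (log2 fold change -1.93 ± 0.42 (SE), adjusted p = 0.0442). This call was lost in 10 of the 23 rounds that left out an animal, among them those without any of the clones or without non-CF fetus 2, 3 or 4 (adjusted p up to 0.297). The round for WT term lamb 1, which was not in the stromal fit, repeated the main result. The call was also lost in 6 of the 12 other settings tried (adjusted p up to 0.97), DESeq2 among them (0.299). CHGA in stromal-like cells was 9.53, 21.4, 12.8 and 19.5 CPM and 7.93, 9.83 and 64.3 CPM, which overlapped. Other pairs separated the groups without a call: GRB10 in endocrine-like cells (13, 15.9, 14.2 and 10.8 against 22, 55.3 and 40.9 CPM, adjusted p = 0.0977) and PLAGL1 in mural-like cells (66.9, 93.8, 74.2 and 97.9 against 171, 195 and 189.6 CPM, adjusted p = 0.899) were higher in every clone. Here and at the later ages, how many pairs or genes separate the groups without a call was not counted. With so few animals, groups can separate by order alone.

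Within the endocrine division, somatostatin-high cells gave 2 member calls, both higher in clones and both from few animals. DLK1 in these cells was 10.3, 25.5 and 7.12 CPM in non-CF fetuses 1, 2 and 4 and 374 and 906 CPM in cloned fetuses 2 and 3 (log2 fold change 5.41 ± 0.95 (SE), adjusted p = 0.0153). The lowest clone was above the highest control, COL1A1 in the same cells was 20.6, 6.39 and 5.7 CPM and 1.77 and 4.29 CPM, and the call was lost without non-CF fetus 4 (adjusted p = 0.0698) or cloned fetus 3 (0.469). PLAGL1 was 19.2, 2.13 and 9.97 CPM in the controls and 69.2 and 89 CPM in the clones (log2 fold change 2.65 ± 0.44 (SE), adjusted p = 0.00845), also lost without cloned fetus 3. Of all genes tested, 0.388% were called in somatostatin-high, 0.569% in glucagon-high and 0.238% in hormone-low cells. The 2 clones came from 1 pregnancy. In hormone-low cells DLK1 was 672, 1269, 2210.1 and 1211 CPM in non-CF and 2127, 1950.1 and 2212 CPM in cloned fetuses, which overlapped (adjusted p = 1).

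**Figure D4:**
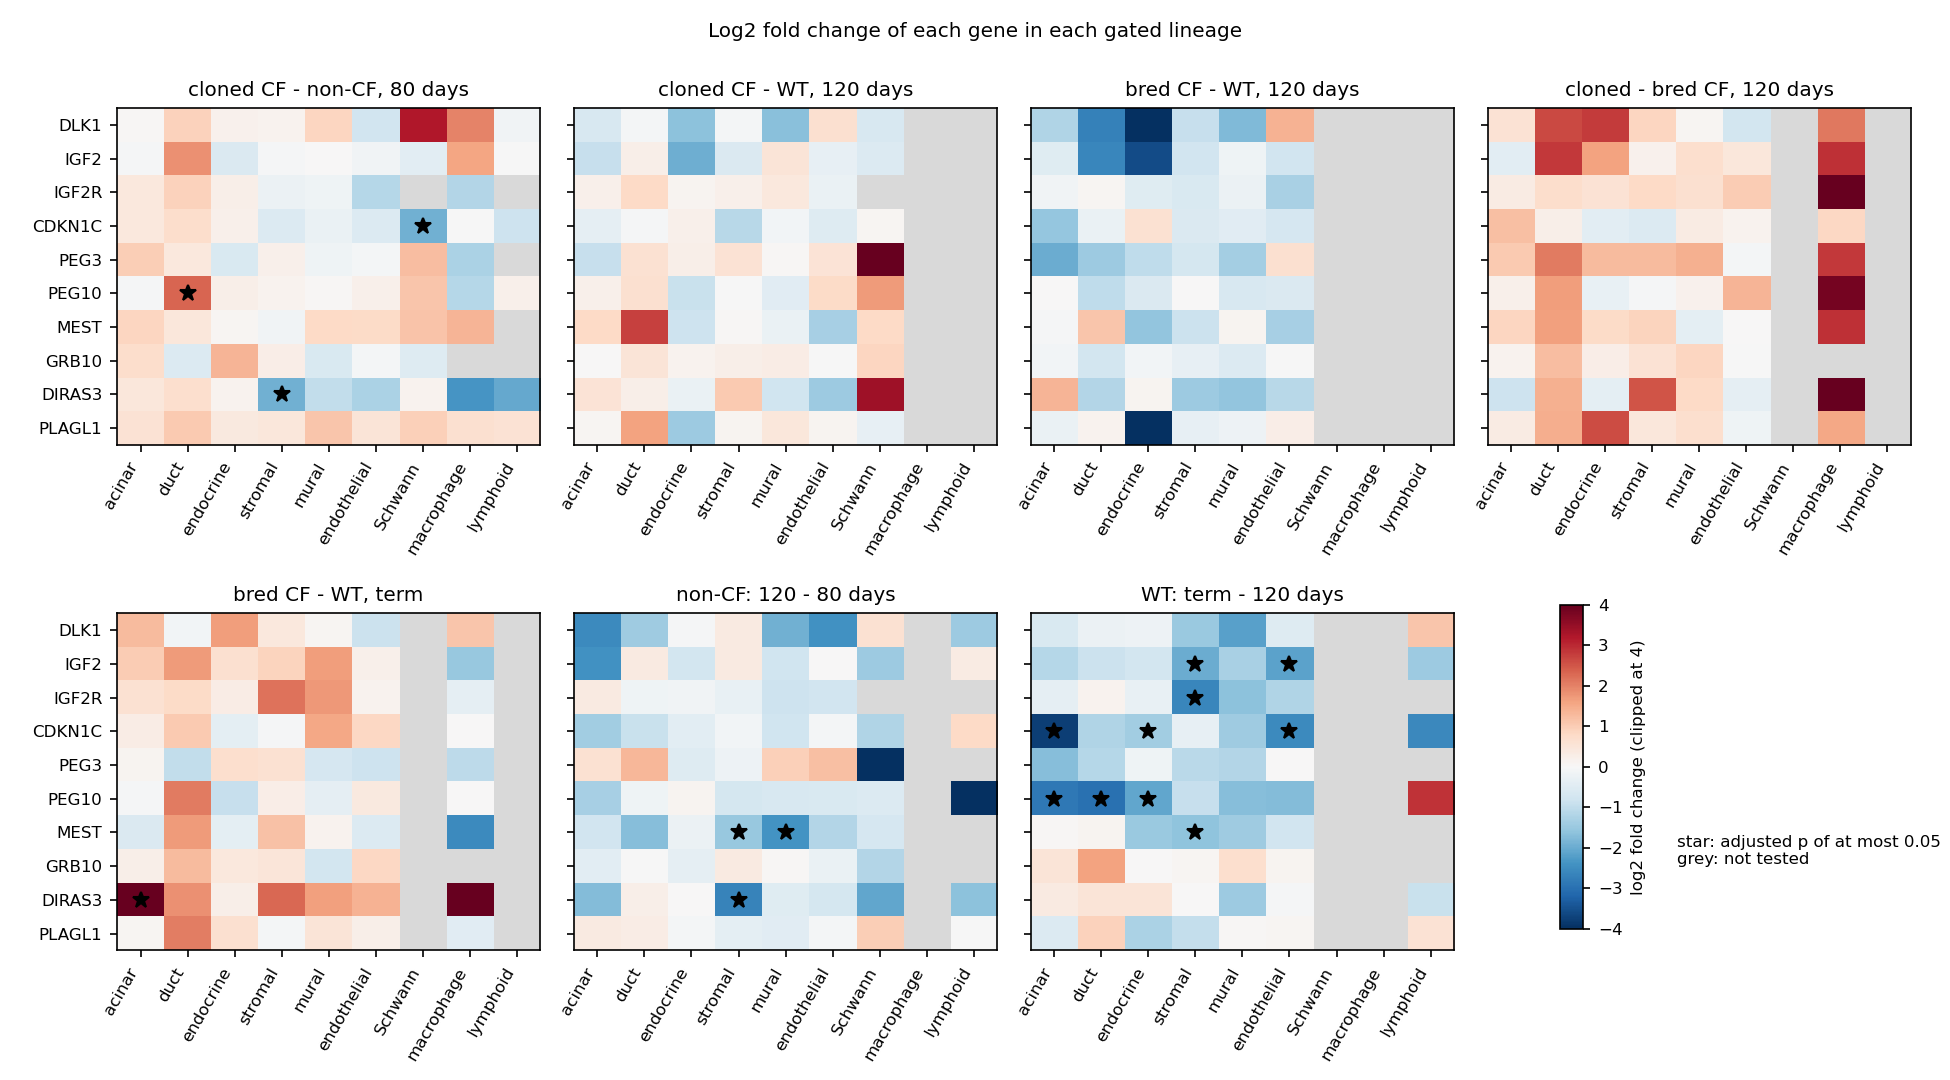
Fitted log2 fold change of each member (rows) in each lineage (columns), 1 panel per comparison, with colours limited at 4 in either direction; a star marks an adjusted p of 0.05 or less and grey marks pairs not tested. Stars are most frequent in the panel of WT term against 120 days, where all 10 are on the lower side, and none stands in the 120-day panels.

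At 120 days none of 69 pairs differed between cloned CF and WT fetuses by edgeR (9 had an unadjusted p under 0.05), and DESeq2 called 0, against 0.0305% of all genes called. IGF2 in stromal-like cells was 5655, 4615 and 6055 CPM in WT and 3785, 4253, 3759.7 and 4071 CPM in cloned fetuses, every clone below every WT fetus, and the difference was not called (log2 fold change -0.59 ± 0.33 (SE), adjusted p = 0.683). CDKN1C in stromal-like cells was 836, 714 and 757 CPM in WT and 383, 239, 241 and 702 CPM in cloned fetuses, likewise without overlap and without a call (log2 fold change -1.12 ± 0.45 (SE), adjusted p = 0.547). Cloned fetuses 3 and 4 had 42 and 33 stromal-like cells. The stromal marker DCN was likewise lower in every clone, at 4348 to 6457 CPM against 6606 to 7792 CPM in WT stromal-like cells. The part of such a wider stromal shift was not tested. DLK1 in stromal-like cells was 10613, 5696 and 6681 CPM in WT and 5189.98, 8446, 4705 and 13670.2 CPM in cloned fetuses, which overlapped fully. PEG10 in endocrine-like cells was 572, 565 and 689 CPM in WT fetuses and 497, 213 and 302 CPM in cloned fetuses 1, 2 and 4 (log2 fold change -0.89 ± 0.35 (SE), adjusted p = 0.465). All 3 clones lay below the WT fetuses, but the spread among them was wide. MEST in stromal-like cells overlapped between the groups, at 233 to 348 CPM in WT and 236 to 482 CPM in clones.

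The 2 naturally bred CF fetuses are the animals at 120 days in which CFTR loss came without cloning. Both were female, and WT fetus 2 was the only female WT fetus of that age, so sex was not matched. Against the same WT fetuses, none of 60 pairs was called by edgeR (10 had an unadjusted p under 0.05) and 2 were by DESeq2, against 0.324% of all genes called. Estimates were lower in the bred fetuses in 48 pairs and higher in 12, with a median log2 fold change of -0.58, beside 0.01 over all genes tested. In stromal-like cells DLK1 was 3908 and 3654 CPM, IGF2 3405 and 2705 CPM and MEST 144 and 168 CPM in the bred fetuses, each below the lowest WT fetus (WT ranges 5696 to 10613, 4615 to 6055 and 233 to 348 CPM). Their adjusted p-values were 0.613, 0.607 and 0.574. With so few animals, such separation can arise by order alone. The stromal marker DCN was also lower in both bred fetuses, at 3673 to 4769 CPM against 6606 to 7792 CPM in WT stromal-like cells. Whether the member differences go beyond such a wider stromal shift was not tested. In endocrine-like cells IGF2 was 5.28 and 2.5 CPM in bred and 45.3, 5.3 and 71 CPM in WT fetuses (log2 fold change -3.57 ± 0.88 (SE), adjusted p = 0.0841), and PLAGL1 was 3.7 and 2.5 CPM and 73.3, 5.3 and 69.9 CPM (log2 fold change -4.08 ± 1.18 (SE), adjusted p = 0.131). Hormone-low cells were 11.2 and 10.3% of endocrine-like cells in the bred fetuses and 42.4, 24.3 and 28.6% in the WT fetuses. They were 32.9, 16.8 and 9.66% in cloned fetuses 1, 2 and 4. Within hormone-low cells IGF2 was 0 to 13.2 CPM in bred and 19.1 to 224 CPM in WT fetuses. PLAGL1 there was 14.7 to 14.9 CPM in bred and 19.1 to 238 CPM in WT fetuses. The bred fetuses had 26 and 73 hormone-low cells, and WT fetus 2 had 26. In glucagon-high cells IGF2 was 0 to 0.487 CPM and 0 to 15.9 CPM, and PLAGL1 was 0.487 to 0.798 CPM and 1.15 to 13.7 CPM. None of these subset differences was called. The lowest WT values of both genes in all endocrine-like cells were those of the female WT fetus. The parts of makeup and sex in the endocrine values were not tested.

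Cloned and bred CF fetuses at 120 days differ in breeding and in sex. None of 69 pairs was called by edgeR (13 had an unadjusted p under 0.05) and 2 were by DESeq2, against 0.379% of all genes called. Estimates were higher in clones in 56 pairs and lower in 13, with a median of 0.76 on the log2 scale, beside 0.01 over all genes. PEG10 in duct-like cells had the smallest adjusted p, at 17, 26.8, 25.7 and 12.1 CPM in clones and 6.39 and 6.04 CPM in bred fetuses, without overlap (log2 fold change 1.66 ± 0.46 (SE), adjusted p = 0.0588). CHGA in duct-like cells was 13.9, 59.2, 12 and 7.43 CPM in clones and 3.46 and 9.71 CPM in bred fetuses, and PEG10 UMIs per CHGA UMI overlapped, at 1.22, 0.453, 2.14 and 1.63 against 1.85 and 0.622. DIRAS3 in macrophage-like cells came next by adjusted p, at 79 and 29.9 CPM in clones 1 and 2 and 0 and 3.37 CPM in the bred fetuses (adjusted p = 0.068), the bred values being 0 and 1 UMI. CHGA in macrophage-like cells was 76.4 and 13.3 CPM in those clones and 0 and 0 CPM in the bred fetuses, and its part in the difference was not tested. For PEG10 in duct-like cells WT fetuses of that age had 10.7, 19.5 and 9.4 CPM, within and below the cloned range. PEG3 in endocrine-like cells was 38.4, 40.7 and 20.8 CPM in cloned and 12.1 and 12.6 CPM in bred fetuses (log2 fold change 1.26 ± 0.40 (SE), adjusted p = 0.216), and in their PPY-high cells it was 101, 80 and 53.3 CPM and 36 and 30 CPM. The bred fetuses serve in both of the last comparisons, so these are not separate observations of them.

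Whether the cloned CF difference changed between 80 and 120 days was tested as an interaction. None of 69 pairs passed by edgeR (9 had an unadjusted p under 0.05), DESeq2 called 0, and 0.00117% of all genes were called. The DIRAS3 difference in stromal-like cells moved by 2.97 ± 0.77 on the log2 scale (adjusted p = 0.825), and at 120 days clones had 18.9, 6.22, 0 and 0 CPM and WT fetuses 7.77, 4.09 and 7.5 CPM. For PEG10 in duct-like cells the change was -1.67 ± 0.51 (adjusted p = 0.46), so a call at 80 days and none at 120 days does not show that the ages differ.

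At term, where the bred CF lambs were set against WT lambs, DIRAS3 was the member that differed, outside its endocrine site. Of 69 pairs, 1 was higher and 0 lower, against 0.383% of all genes called and 0.324% called higher. In acinar-like cells DIRAS3 was 0.774, 2.77, 1.84 and 3.55 CPM in the 4 WT lambs and 9.89 and 171 CPM in bred CF lambs 1 and 2 (log2 fold change 4.97 ± 0.85 (SE), adjusted p = 0.0112). Both CF lambs lay above the WT lambs, but lamb 2 was far above lamb 1, and without lamb 2 the difference was not called (log2 fold change 2.62, adjusted p = 0.228). Without WT lamb 3 the adjusted p was 0.0634, and with the term lambs fitted alone it was 0.618. A DIRAS3 UMI was found in 80.3% (95% Wilson interval 77.6 to 82.8%) of the 874 acinar-like cells of bred lamb 2, in 14.3% of those of bred lamb 1 and in 1.74 to 20.4% of those of the other animals of all ages. Median depths were 36033 UMIs per cell in lamb 2 and 18472 in lamb 1, within the range of the other animals (13763 to 45608.5). In endothelial-like cells of lamb 2 the share was 7.52%, at a median of 9694 UMIs. The richest 1% of these cells held 8.01% of the DIRAS3 UMIs of lamb 2, so it did not rest on a few cells.

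CHGA in acinar-like cells was 9.03 and 17.8 CPM in the bred lambs and 10.1, 6.72, 8.92 and 6.6 CPM in the WT lambs. DIRAS3 UMIs per CHGA UMI in acinar-like cells were 1.1 and 9.62 in bred lambs 1 and 2 and 0.0769, 0.412, 0.206 and 0.539 in the WT lambs, against 0.426 and 0.613 in endocrine-like cells of the same bred lambs. In duct-like cells DIRAS3 was 63.8 and 160.2 CPM in the bred lambs and 36.2, 29.9, 22.9 and 48.7 CPM in the WT lambs (log2 fold change 1.81 ± 0.48 (SE), adjusted p = 0.052), above all WT values and just short of a call. CHGA in duct-like cells was 18.8 and 17.4 CPM in the bred lambs, also above the WT lambs (6.92, 13.4, 12.1 and 3.61 CPM), and DIRAS3 UMIs per CHGA UMI there were 3.39 and 9.23 in the bred lambs, within the 1.89 to 13.5 of the WT lambs. In stromal-like cells DIRAS3 was 22.8 and 32.7 CPM and 6.29, 0 and 0 CPM (log2 fold change 2.29 ± 0.63 (SE), adjusted p = 0.226). Both bred lambs also lay above every WT lamb measured in endothelial-like cells (10.6 and 10.3 against 0, 7.69, 0 and 0.979 CPM, adjusted p = 0.895) and macrophage-like cells (13.7 and 16.3 against 0 and 0 CPM, adjusted p = 0.67). In mural-like cells DIRAS3 was 3.34 and 20 CPM in bred and 3.83 and 2.92 CPM in WT lambs (adjusted p = 1). CHGA was higher in both bred lambs than in the WT lambs in stromal-like (17.6 and 28.5 against 8.12, 0 and 4.33 CPM) and macrophage-like cells (17.6 and 13.3 against 3.09 and 0 CPM), and overlapped in endothelial-like cells (14.2 and 3.7 against 0, 7.69, 0 and 0.979 CPM). The part of endocrine RNA in these DIRAS3 readings was not tested. In endocrine-like cells DIRAS3 overlapped, at 2196 and 3072 CPM against 1815, 1877 and 3176 CPM (adjusted p = 0.834). The cloned CF lamb had 5.8 CPM in acinar-like and 34.6 CPM in duct-like cells.

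**Figure D5:**
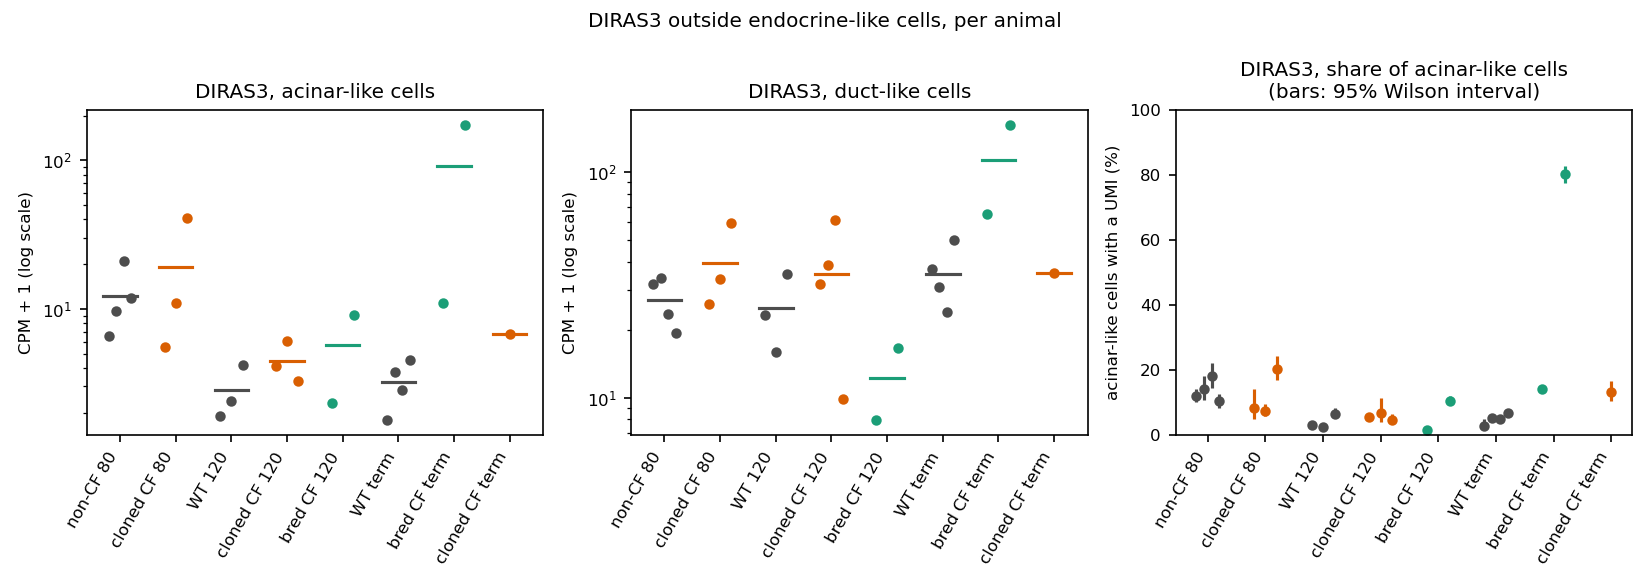
DIRAS3 in each animal by group: level in acinar-like cells and in duct-like cells (CPM + 1 on a log axis, with bars at group means), and the percentage of acinar-like cells with a DIRAS3 UMI with its 95% Wilson interval (counting error only). Bred CF lamb 2 at term is highest in all 3 panels among term animals.

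Other members at term overlapped or missed the threshold. With so few lambs, groups can lack overlap by order alone. GRB10 in endothelial-like cells was 279 and 261 CPM in bred and 157, 169, 169 and 181 CPM in WT lambs, without overlap (log2 fold change 0.84 ± 0.22 (SE), adjusted p = 0.481). PEG10 in duct-like cells was 3.53 and 8.55 CPM and 1.26, 2.13, 1.27 and 0.602 CPM, again without overlap and close to the threshold (log2 fold change 2.06 ± 0.55 (SE), adjusted p = 0.0547). PEG10 UMIs per CHGA UMI there were 0.188 and 0.493 in bred lambs 1 and 2 and 0.105 to 0.182 in the WT lambs, with CHGA itself higher in both bred lambs, as given above. The WT values rest on 4, 10, 2 and 1 PEG10 UMIs. IGF2 in mural-like cells was 1630.03 and 1530.4 CPM in bred lambs and 601 and 301 CPM in WT lambs 2 and 4 (log2 fold change 1.68 ± 0.44 (SE), adjusted p = 0.779). Both bred lambs were high for it, as was the cloned lamb at 1758 CPM. DLK1 in hormone-low endocrine-like cells was 4072 and 3629 CPM in the bred lambs, within the WT range of 6.34 to 4626 CPM. The top of that range was the value of the only female WT lamb, and the part of sex was not tested.

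The single cloned CF lamb gives values with no replicate and no test. Its stromal DLK1 (3972 CPM) and IGF2 (1763 CPM) were within the WT term ranges of 1439 to 4954 and 615 to 2569 CPM. GRB10 in endothelial-like cells (256 CPM) lay with the bred CF lambs above the WT lambs, and CDKN1C there (23.7 CPM) below them. PEG10 in endocrine-like cells was 155 CPM and DIRAS3 2407 CPM, both within the WT ranges. In Schwann-like cells, which had a single other term library, its DIRAS3 was 494 CPM.

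A list of 34 other imprinted genes, of which 31 could be tested in some lineage, was read in the same fits. At 80 days, 2 of 178 pairs were higher and 0 lower in clones (1.12%, against 0.488% of all genes), both in endocrine-like cells, and they are named here after their values were seen. PHLDA2, a restrainer of placental growth, was 10, 9.12, 9.63 and 9.54 CPM in non-CF and 79.8, 240.3 and 143 CPM in cloned fetuses (log2 fold change 3.80 ± 0.40 (SE), adjusted p = 4.87e-05). ZDBF2, a paternally expressed zinc finger gene, was 47, 20.3, 27.8 and 28.3 CPM and 117, 178 and 269.9 CPM (log2 fold change 2.42 ± 0.50 (SE), adjusted p = 0.0356). No control reached the lowest clone for either gene. At 120 days edgeR called 0 of 147 pairs for clones against WT (11 at an unadjusted p under 0.05 and 0 by DESeq2) and 0 of 135 for bred CF against WT (18 and 3). ZDBF2 was the single pair called between cloned and bred CF fetuses, of 151 (0.66%, against 0.379% of all genes), in duct-like cells (28.8, 88.7, 137 and 14.1 against 3.2 and 2.37 CPM, log2 fold change 4.40 ± 0.91 (SE), adjusted p = 0.0262). At term none of 151 pairs was called by edgeR for bred CF against WT (12 at an unadjusted p under 0.05 and 0 by DESeq2). With age, 1 pair was higher and 0 lower of 162 to 120 days (0.62%, against 1.1% of all genes), and 2 were higher and 6 lower of 150 to term (5.33%, a share like the 5.38% of all genes), among them MEG3 in stromal-like (log2 fold change -1.59 ± 0.41 (SE), adjusted p = 0.0236) and endothelial-like cells (log2 fold change -1.57 ± 0.39 (SE), adjusted p = 0.038). MEG3 and DLK1 share a locus and had the same sign in stromal-like cells, where DLK1 was not called.

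The IGF axis list held 22 genes, among them ligands, receptors, IGF-binding proteins, proteases and proteins that bind IGF2 mRNA. Of these genes 19 were tested, and the list gave few genotype calls. None of 118 pairs was called at 80 days by edgeR (13 at an unadjusted p under 0.05 and 1 by DESeq2). At 120 days IGFBP2, an IGF-binding protein named after its values were seen, was higher in endocrine-like cells of clones (12.3, 21.2 and 26 CPM) and of bred CF fetuses (17.9 and 15.8 CPM) than of WT fetuses (4.1, 7.58 and 3.38 CPM). PPY-high cells were 16.3, 27.1 and 29% of endocrine-like cells in cloned fetuses 1, 2 and 4 and 18.5 and 18.3% in the bred fetuses, against 0.369, 9.35 and 3.32% in the WT fetuses. IGFBP2 was 53.3 to 77.5 CPM in PPY-high cells and at most 5.62 CPM in glucagon-high cells of the CF fetuses. It was 23.8 CPM in the 26 PPY-high cells of WT fetus 3 and 2.41 to 3.46 CPM in glucagon-high cells of the WT fetuses. In hormone-low cells it was 3.62 to 38.6 CPM in clones, 9.82 to 18.2 CPM in bred fetuses and 0 to 4.91 CPM in WT fetuses. The part of this makeup in the difference was not tested. The tests over all endocrine-like cells gave log2 fold change 2.19 ± 0.38 (SE), adjusted p = 0.0303 for clones and log2 fold change 2.08 ± 0.42 (SE), adjusted p = 0.045 for bred fetuses. Each was the single call, of 101 (0.99%) and 91 pairs (1.1%), where 0.0305% and 0.324% of all genes were called. Both comparisons use the same 3 WT fetuses. Between cloned and bred CF fetuses none of 102 pairs was called by edgeR (16 at an unadjusted p under 0.05 and 2 by DESeq2). At term 1 of 102 pairs (0.98%, against 0.383% of all genes) was lower in bred CF lambs, the secreted glycoprotein gene STC1 in duct-like cells, named after its values were seen (log2 fold change -1.77 ± 0.30 (SE), adjusted p = 0.00474). With age, 2 pairs were higher and 5 lower of 107 to 120 days (6.54%, against 1.1% of all genes), with genes of mRNA-binding proteins among the lower ones. To term, 1 was higher and 4 were lower of 97 (5.15%, a share like the 5.38% of all genes). The median log2 fold change over the pairs of a list ran from -0.14 to 0.16 for the other imprinted genes and from -0.28 to 0.19 for the IGF axis over the 8 comparisons, beside -0.02 to 0.01 over all genes.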

How the data were processed

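Per the labels and the study's methods, the authors sequenced 10x Genomics 3′ libraries (26 libraries of 23 animals) and made gene-by-cell matrices of UMI counts with Cell Ranger 3.1.0 (version from the submitters' processing notes) against the sheep genome Oar_v4.0. The deposited values are raw counts with no normalization. Counts at the 3′ end are not divided by gene length, so the level of a gene is compared between animals and lineages, and a ratio of a member's UMIs to those of a marker gene only with the same ratio elsewhere.

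Barcodes with over 200 and under 6000 genes and under 25% UMIs of MT- genes were kept, the limits the study states. Whether a CF animal was cloned or bred was taken from the study's table of animals, and libraries of 1 animal were summed. A cell was given a lineage when its mean scaled marker score within its age (log of counts per 10000) was at least 0.4, led the next lineage by 0.4 and rested on 3 detected markers. Within 0.1 of the limits there were 1635 acinar-like, 373 duct-like and 81 stromal-like cells inside and 1265, 351 and 79 outside. Scrublet's automatic call marked 626 barcodes (0.787%), and doublets stayed in, with their removal as an alternative. No insulin values were used.

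Counts were summed per animal and lineage where an animal had at least 20 cells. edgeR 4.0.16 in R 4.3.3 (TMM factors, filterByExpr, quasi-likelihood test) was fitted per lineage over all animals with enough cells. In the main fits a comparison was tested where each group had 2 or more animals. Benjamini-Hochberg adjustment was over all genes of the lineage, with a threshold of 0.05. Groups of 1 animal, such as the cloned term lamb, entered the fit but no test. The count filter takes the size of the smallest group, so a gene could pass it through 1 animal. All 10 members passed the filter in acinar-, duct-, endocrine-, stromal-, mural- and endothelial-like cells. IGF2R was filtered out in Schwann-like, GRB10 in macrophage-like, and GRB10, IGF2R, MEST and PEG3 in lymphoid-like cells. CPM are a member's summed UMIs per 1000000 UMIs of the animal's lineage, and intervals on shares of cells cover counting error only. CPM leave out the TMM factors of the fit, so the 2 can differ even in sign. In acinar-like cells of non-CF fetuses PLAGL1 averaged 17.9 CPM at 80 days and 11.7 CPM at 120 days. Its fitted log2 fold change was 0.36. Each SE is the absolute log2 fold change divided by the square root of the test's F, not a separately fitted error, and can differ from what the p-value implies. Likeness was Spearman's rho over lineage-by-age means, among genes averaging at least 10 CPM. DESeq2 1.42.0, other scaling and filters, each age alone, a replicate block, stricter gates, clusters of each library (Python 3.11.15, scanpy 1.11.5), at least 50 cells, summed littermates and animals left out were alternatives. On simulated counts for cloned against WT at 120 days with 200 genes changed by 2 on the log2 scale, the test recovered 45.5% in stromal-like (11735 genes), 77% in endocrine-like (13510) and 60.5% in acinar-like cells (14855), with 3 or 4 false calls each. Members and lists were chosen with earlier results of these data known. Names of neighbouring genes came from a RefSeq table of another assembly (ARS-UI_Ramb_v3.0), so no coordinates are given. Named genes were the 10 members, the 3 genes most like DLK1, IGF2 and DIRAS3, and genes of the lists called in 2 or more lineages in a single genotype or breeding comparison. No list gene met that last condition, and the list genes named from calls in 1 lineage (PHLDA2, ZDBF2, IGFBP2, STC1) or with age (MEG3) were chosen after their values were seen.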

Additional observations from a re-analysis of the deposited data

Results flagged for a closer look

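In groups of 4 animals, 1 animal stood apart from the other 3 by Dixon's criterion in 17 of 140 checks, where chance gives about 1 in 20. Among the growth factors and the receptor, DLK1 stood high in duct-like cells of WT term lamb 2 (6.40 CPM) and in mural-like cells of non-CF fetus 3 at 80 days (544 CPM), and IGF2 stood low in stromal-like cells of non-CF fetus 4 at 80 days (3881 CPM). IGF2R stood high in duct-like cells of cloned fetus 3 at 120 days (63.4 CPM) and in endothelial-like cells of cloned fetus 4 (39.6 CPM).

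Among the restrainers, CDKN1C stood apart in duct-like cells of non-CF fetus 1 at 80 days (179 CPM) and of cloned fetus 2 at 120 days (58.1 CPM), and in endothelial-like cells of non-CF fetus 1 (430.4 CPM). DIRAS3 stood apart in endothelial-like cells of WT term lamb 2 (7.69 CPM), and PLAGL1 in Schwann-like cells of cloned fetus 4 at 120 days (87.0 CPM) and in acinar-like cells of non-CF fetus 1 at 80 days (25.9 CPM).

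PEG3 stood apart in acinar-like cells of WT term lamb 2 (6.11 CPM) and in endothelial-like cells of cloned fetus 3 at 120 days (12.4 CPM). PEG10 was at 0 CPM in Schwann-like cells of cloned fetus 4 at 120 days, which had 23 such cells, and stood apart in endothelial-like cells of non-CF fetus 2 at 80 days (24.0 CPM). MEST stood apart in acinar-like cells of WT term lamb 1 (29.3 CPM) and in duct-like cells of cloned fetus 2 at 120 days (75.6 CPM). The interaction test called no change of a member's cloned difference between the ages, which does not show that the differences were alike.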

How the results depend on the processing

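The 10 member pairs lower at term than at 120 days in WT animals were the steadiest set, with 8 to 12 calls when 1 animal was left out. IGF2 in stromal- and endothelial-like, CDKN1C in acinar- and endothelial-like, and PEG10 in duct- and endocrine-like cells were called in all of those fits and in all 11 other settings. PEG10 in duct-like cells of the WT term lambs rests on only 4, 10, 2 and 1 UMIs. The 3 calls of cloned against non-CF fetuses at 80 days became 10 with no filter on low counts, 6 with each age fitted alone, 1 with a replicate block, 1 with clusters of each library, and 0 with littermates summed or without the heterozygotes (1 to 4 when an animal was left out). From 80 to 120 days the 3 calls became 5 by DESeq2, 6 without the filter, 1 by library clusters, 0 with littermates summed, 0 without heterozygotes and 1 without females (1 to 4). The 1 call of bred CF at term became 3 by DESeq2, 6 without the filter, 0 with each age alone, 2 with a replicate block, 3 under the stricter gate, 2 by library clusters and 3 with the highest doublet scores removed (0 to 3). For clones against WT at 120 days the count of 0 became 2 without the filter (0 when any animal was left out), for bred CF 2 by DESeq2 and 4 without the filter (0 to 1), for cloned against bred CF 2 by DESeq2, 3 without the filter and 1 under the stricter gate (0 to 2), and for the interaction 1 without the filter (0 to 1). The cause of these shifts was not tested. No estimate changed sign among called pairs. The replicate numbers did not pair the samples, since same-numbered animals deviated together with median correlations of 0.02 in acinar-like, -0.02 in duct-like and -0.01 in endothelial-like cells. The block gave 11 calls for WT term against 120 days and could not be fitted for the bred fetuses at 120 days. Age comparisons and the interaction cannot be fitted with each age alone. Bred CF comparisons have no fit without females, and those at 120 days none with littermates summed. Stromal-like cells numbered 42 and 33 in cloned fetuses 3 and 4 at 120 days and 30 in WT term lamb 3, where 3 UMIs amount to 15.1, 32.4 and 42.3 CPM, and IGF2R in that lamb rests on 1 UMI.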
